A study of Mus musculus with 6 samples.

Results

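The keratin and keratin-associated genes are those protein-coding autosomal genes of the mouse whose symbols read Krt or Krtap followed by a number. The rule used names only and no measured value. It gave 109 genes, 53 Krt and 56 Krtap, of 20375 protein-coding autosomal genes that could be placed in a labelled bin. Chromatin contacts were measured by Hi-C, an assay that ligates and sequences DNA pieces lying close together in the nucleus, in E14 (E14TG2a) mouse embryonic stem cells, a male line grown with serum and LIF. The 6 libraries came from wild-type cells transfected with esiRNA, an enzymatically cut pool of short interfering RNAs, and harvested 48 h later. In the Brg1KD group (2 libraries) the esiRNA targeted Smarca4, which encodes Brg1, the motor subunit of esBAF, a remodeller of nucleosomes. In the Ino80KD group (2 libraries) it targeted Ino80, which encodes the motor subunit of the INO80 remodeller. In the control group (2 libraries) it targeted EGFP. All groups thus carried transfected esiRNA, knockdown was transient, and the labels do not say whether replicates were separate cultures, so the spread between libraries may be technical. Replicate 1 of every group was batch 1 and replicate 2 batch 2. The series title frames the question as how esBAF and INO80 tune subcompartments and contacts of enhancers with promoters.

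Keratins are the intermediate filament proteins of epithelial cells, and each filament is built from pairs of a type I and a type II chain. The type I genes lie together on chromosome 11 of the mouse and the type II genes on chromosome 15, except Krt18, a type I gene at the edge of the type II cluster. Keratin-associated proteins are small proteins, rich in cysteine or in glycine and tyrosine, that embed the keratin filaments of hair, and their genes form runs of near-identical copies. Embryonic stem cells are not keratinocytes, and of the family Krt8 and Krt18 are the pair known from simple epithelia and the early embryo.

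For each library the authors deposited segments of the genome labelled with 1 of 8 subcompartments. The labels run from B.2.2, the most B-like (inactive, gene-poor) and here rank 1, through B.2.1, B.1.2, B.1.1, A.2.2, A.2.1 and A.1.2 to A.1.1, the most A-like (active, gene-rich) and here rank 8. A shift is given in classes, 1 class being 1 step of rank, and is positive towards A. Each gene took the label of the 50 kb bin that holds its midpoint. Genes of 1 bin share a label by construction, and bins of 1 segment do too, so the genes are not independent measurements. Pou5f1, a core pluripotency factor, and the targeted genes Smarca4 and Ino80 were in A.1.1 in all 6 libraries. Of 2 further pluripotency factors, Sox2 was A.1.2 in Brg1KD replicate 1 and Ino80KD replicate 1, Nanog was A.1.2 in Brg1KD replicate 2, and both were A.1.1 in the other libraries. A.1.1 held 7541 to 8642 of the 20375 protein-coding genes in the libraries, so this label does not identify the cells. Hi-C measures no transcript, so neither the strength of the knockdown nor the expression of any keratin gene is known from these files. Read numbers are not given in the files, so depth is unknown.

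The 109 genes fell into 5 clusters and 1 lone gene, taking as 1 cluster all genes less than 500 kb from the next. The type I cluster (chr11:99232761-100269951, GRCm38.p6, the assembly of mm10) held 50 genes, 27 Krt and 23 Krtap, from Krt222 to Krt42. The type II cluster (chr15:101348315-102032026) held 26 Krt genes from Krt80 to Krt18. The largest cluster of Krtap genes alone (chr16:88610709-89571183) held 24, from Krtap24-1 to Krtap11-1. On chromosome 7 (chr7:142174532-142304503) lay 5 Krtap5 genes, which encode proteins very rich in cysteine, from Krtap5-2 to Krtap5-4. On chromosome 10 (chr10:77720586-77837251) lay Krtap12-1, Krtap10-4 and Krtap10-10. Krtap28-13 lay alone at chr1:83060930-83061921. The type II cluster held the fewest protein-coding genes with other symbols, 1 within its 683.7 kb. There were 15 in the 1037.2 kb of the type I cluster and 34 in the 960.5 kb on chromosome 16. All of these carry provisional symbols that begin with Gm or end in Rik. Whether any of them is a keratin-associated gene that the rule on names missed was not tested.

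What the promoters share was read from the RefSeq promoter table, which covers 250 bases before to 50 bases after the annotated start on GRCm38.p6 and matched 87 of the 109 genes (36 Krt and 51 Krtap). The following are shown because each stands for a stretch whose label differed between groups, apart from Krt18, which stands for the pair with the same label in every library. They are the promoters of Krt10 (chr11:99389315-99389614, minus strand), a keratin of suprabasal epidermis, Krt42 (chr11:100269902-100270201, minus strand), a type I keratin at the right edge of its cluster, Krt5 (chr15:101712856-101713155, minus strand), the keratin of basal epidermis, Krtap14 (chr16:88826096-88826395, minus strand), a hair keratin-associated protein, and Krt18 (chr15:102027966-102028265, plus strand). Capitals mark TATAAA, the core letters of the TATA box, on either strand.
Krt10: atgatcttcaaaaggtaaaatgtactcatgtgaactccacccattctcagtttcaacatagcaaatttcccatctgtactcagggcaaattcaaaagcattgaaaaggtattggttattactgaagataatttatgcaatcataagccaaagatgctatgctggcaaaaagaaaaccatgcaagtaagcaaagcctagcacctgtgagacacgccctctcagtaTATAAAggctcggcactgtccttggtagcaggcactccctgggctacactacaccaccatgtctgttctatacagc
Krt42: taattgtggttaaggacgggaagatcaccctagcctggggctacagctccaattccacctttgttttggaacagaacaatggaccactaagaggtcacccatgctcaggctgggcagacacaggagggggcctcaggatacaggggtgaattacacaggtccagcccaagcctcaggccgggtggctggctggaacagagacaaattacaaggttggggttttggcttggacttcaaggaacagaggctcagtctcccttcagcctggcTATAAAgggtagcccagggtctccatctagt
Krt5: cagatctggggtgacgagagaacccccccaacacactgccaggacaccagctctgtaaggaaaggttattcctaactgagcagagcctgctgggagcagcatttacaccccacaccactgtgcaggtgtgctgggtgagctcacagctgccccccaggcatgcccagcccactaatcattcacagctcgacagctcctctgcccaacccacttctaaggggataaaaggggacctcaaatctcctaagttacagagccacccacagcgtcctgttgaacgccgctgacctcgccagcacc
Krtap14: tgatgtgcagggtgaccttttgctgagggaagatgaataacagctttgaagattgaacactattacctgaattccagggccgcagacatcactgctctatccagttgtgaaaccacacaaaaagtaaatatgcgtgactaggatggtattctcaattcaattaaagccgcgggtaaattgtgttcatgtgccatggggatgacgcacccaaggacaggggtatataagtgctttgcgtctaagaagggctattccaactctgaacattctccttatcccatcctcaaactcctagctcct
Krt18: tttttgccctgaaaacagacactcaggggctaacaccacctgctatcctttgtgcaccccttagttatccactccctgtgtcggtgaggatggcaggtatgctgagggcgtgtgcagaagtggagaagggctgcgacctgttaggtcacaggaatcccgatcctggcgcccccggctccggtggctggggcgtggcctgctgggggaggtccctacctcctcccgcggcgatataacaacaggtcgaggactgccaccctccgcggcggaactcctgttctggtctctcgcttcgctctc

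TATAAA stood in 70.1% of the 87 keratin promoters (52.8% of Krt, 82.4% of Krtap), against 14.2% of 25748 autosomal promoters of the same length. With TATAAA on the coding strand and starting 40 to 20 bases before the start, where a TATA box acts, the shares were 50.6% of the keratin promoters and 2.3% of all. In Krt10 the letters start 26 bases before the annotated start, and in Krt42 they lie after it. Krt5, Krtap14 and Krt18 hold no exact match in this window. GGGCGG, the letters of the GC box bound by Sp1, searched on both strands, stood in 2.3% of the keratin promoters, against 36.3% of all. TGANTCA, the letters bound by AP-1, searched on both strands, stood in 12.6% (2.8% of Krt, 19.6% of Krtap), against 8.0% of all. The keratin promoters held a median of 3 CpG, against 7 over all promoters, and the most were in Krt7 (21) and Krt18 (17), both keratins of simple epithelia. Promoters of Krtap copies resemble each other, so these shares count related sequences more than once, and a match describes letters, not a bound site.

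Keratin genes lay in B more often than genes at large. Of the 109 genes, 41 and 37 lay in A in the Brg1KD libraries, 25 and 35 in the Ino80KD libraries, and 32 and 32 in the control libraries, in the order of replicates 1 and 2. These are 37.6% and 33.9%, 22.9% and 32.1%, and 29.4% and 29.4% of the genes. Of all protein-coding genes 71.1% to 72.2% lay in A in every library. Among the 53 Krt genes 33 and 33 lay in A in Brg1KD, 21 and 27 in Ino80KD, and 23 and 29 in control. Among the 56 Krtap genes 8 and 4 lay in A in Brg1KD, 4 and 8 in Ino80KD, and 9 and 3 in control. The Krt counts of Brg1KD thus lay above those of the other 4 libraries, and the Krtap counts of the groups overlapped. The Krt genes in A in both Brg1KD libraries and in B in the other 4 were those from Krt90 to Krt71, a single stretch of neighbours. Krt17 and Krt42 lay in A in control alone.

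The 3 large clusters differed from each other by more than the libraries differed within any of them. The mean rank of the 26 type II genes was 6.15 and 5.58 in Brg1KD, 5.00 and 5.00 in Ino80KD, and 5.00 and 5.69 in control. That of the 50 type I cluster genes was 3.04 and 3.52 in Brg1KD, 2.94 and 2.94 in Ino80KD, and 3.10 and 3.08 in control. That of the 24 chromosome 16 genes was 1.17 and 1.63 in Brg1KD, 1.42 and 1.38 in Ino80KD, and 1.33 and 1.38 in control. The type II cluster thus lay at the weak end of A, the type I cluster in B, and the chromosome 16 cluster at the B end of the scale in every library. Both keratin clusters sat as dips in A-like surroundings: the 500 kb on either side averaged 7.4 to 8.0 for the type I cluster and 7.4 to 8.0 for the type II cluster over the libraries. The chromosome 16 cluster lay on a slope, with 1.0 to 1.5 on its left and 6.0 to 6.5 on its right.

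**Figure D1:**
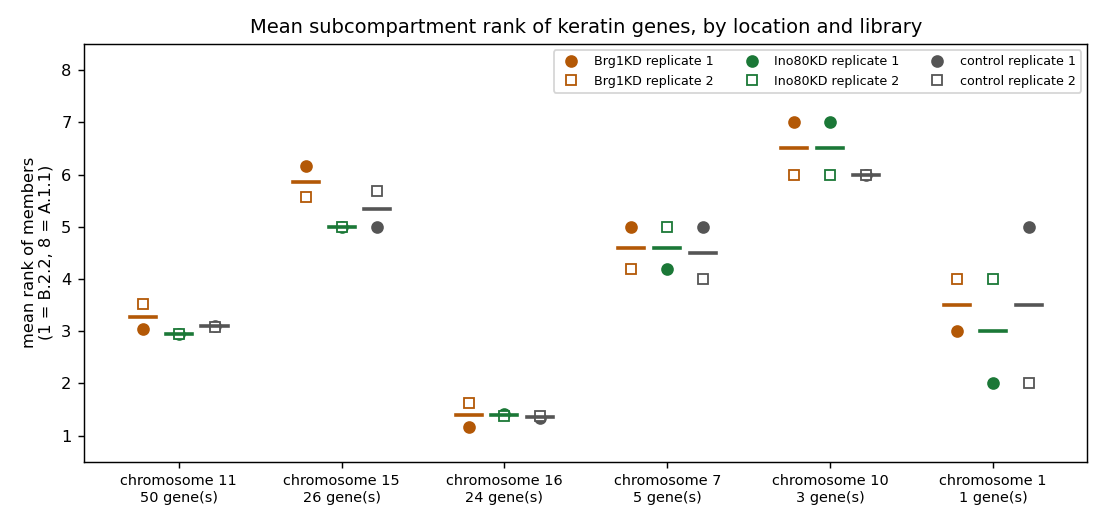
Mean subcompartment rank (vertical axis, 1 = B.2.2 to 8 = A.1.1) of the keratin and keratin-associated genes at each location, with 1 point per library (filled circle, replicate 1; open square, replicate 2) and a bar for the mean of the group. The 3 large locations keep their order in every library, and on chromosome 15 Brg1KD replicate 2 (5.58) lies below control replicate 2 (5.69).

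Both replicates gave the same label to a smaller share of these genes than of all bins. The same label was given by both libraries to 46.8% of the 109 genes in Brg1KD, 64.2% in Ino80KD and 46.8% in control. Over all bins the shares were 68.3%, 69.5% and 68.9%, and the share over all genes was not computed. Neighbours weigh on the keratin shares: the 19 genes from Krtap31-1 to Krt16, 1 run of labels, differed between replicates in every group. Of the 109 genes, 23 had the same label in all 6 libraries, against 9122 of 20375 protein-coding genes (44.8%). The end class A.1.1 held 2 to 4 of the 109 genes and 7541 to 8642 of all protein-coding genes, depending on the library. How far this bears on the difference was not tested. Of the 23 genes, 19 made up the middle of the type I cluster from Krt12 to Krtap4-9, all in B.2.1. The stretch holds Krt12, the keratin of the cornea, Krt20, of the intestinal lining, and Krt23, with the Krtap3, Krtap1, Krtap2 and most Krtap4 genes. The other 4 were Krt8 and Krt18, in A.1.1, and Krtap7-1 and Krtap11-1, in B.1.2.

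At the right edge of the type I cluster both knockdowns differed from control in the same way. Krt17, a keratin of wounds, nails and hair follicles (chr11:100256215-100261029), and Krt42 share the bin chr11:100250001-100300000. It was B.1.2 and B.1.1 in Brg1KD, B.1.1 and B.1.2 in Ino80KD, and A.1.1 and A.1.1 in control. All 4 knockdown libraries lay in B and both controls in the most A-like class. The mean difference was -4.5 classes in either comparison, -5 and -4 within batches 1 and 2 for Brg1KD and -4 and -5 for Ino80KD. Neither passed limma's test over all bins, with adjusted p = 0.0508 for Brg1KD against control and 0.0759 for Ino80KD against control. With 1 variance common to all bins, which ignores the spread of the bin itself, the adjusted p were 1.15e-17 and 9.70e-18. With batch as a block they were 0.242 and 0.366. The 2 comparisons share their control libraries.

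On the map the difference is a shifted segment border. The A.1.1 segment to the right of the cluster started at 100300001 in all 4 knockdown libraries, 1 bin further right than in both controls, where it started at 100250001. Eif1, a translation initiation factor and the next gene to the right, and Jup, plakoglobin of the desmosome, were in A.1.1 in all 6 libraries. To the left of the bin, the 19 genes from Krtap31-1 to Krt16 were B.1.2 and B.1.1 in Brg1KD, B.1.1 and B.1.2 in Ino80KD, and B.1.1 and B.1.2 in control. They include the hair keratins Krt31, Krt33a and Krt35, the mucosal Krt13, the basal Krt14 and Krt15, Krt19 of simple epithelia, Krt9 of palm and sole, and the wound keratin Krt16, and their groups overlapped. In the knockdown libraries Krt17 and Krt42 carried the label of these neighbours.

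At the left edge of the type I cluster Brg1KD alone differed from control. Krt222, a keratin-like gene at chr11:99232761-99244147, was A.2.1 in both Brg1KD libraries, and A.1.2 in both libraries of Ino80KD and of control. It fell by 1 class in Brg1KD against control (limma, adjusted p = 8.00e-08), and was the only one of the 109 genes called in this comparison. With a common variance its adjusted p was 0.236, and with 100 kb bins its shift turned to 0.75 with adjusted p = 0.88. That 100 kb bin averages the 50 kb bin of Krt222, at -1, with that of Krt24, at 2.5. The 50 kb bin of Krt222 also holds Smarce1, a subunit of the BAF complex itself, which therefore had the same labels. Next to it, the 6 genes Krt24, Krt25, Krt26, Krt27, Krt28 and Krt10 (bins chr11:99250001-99400000) were A.2.1 and A.2.1 in Brg1KD, B.2.1 and A.2.2 in Ino80KD, and B.2.1 and A.2.2 in control. Krt25 to Krt28 are keratins of the inner root sheath of the hair, and Krt10 of suprabasal epidermis. Both Brg1KD libraries lay above both controls, but the controls themselves were 3 classes apart. The mean difference of 2.5 classes, 4 in batch 1 and 1 in batch 2, did not pass the test (limma, adjusted p = 0.808; 3.11e-05 with a common variance). In both Brg1KD libraries 1 segment of A.2.1, chr11:99050001-99400000, spanned Krt222 and these 6 genes. In control and Ino80KD the A.1.2 segment ended at 99250000, before Krt24.

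In the middle of the cluster, Krtap4-13, Krtap4-16 and Krtap9-1, of the cysteine-rich hair proteins, were B.1.2 and B.1.1 in Brg1KD, B.2.1 and B.1.2 in Ino80KD, and B.2.1 and B.2.1 in control. Brg1KD lay 1.5 classes above control (1 and 2 within batches; limma, adjusted p = 0.733; 0.0466 with a common variance). The B.2.1 segment ended at 99800000 in both Brg1KD libraries and in Ino80KD replicate 2, and at 99900000 in the other 3 libraries. Members of the Krtap4 and Krtap9 families are near-identical, and how reads matching several copies were treated is not stated in any source used.

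**Figure D2:**
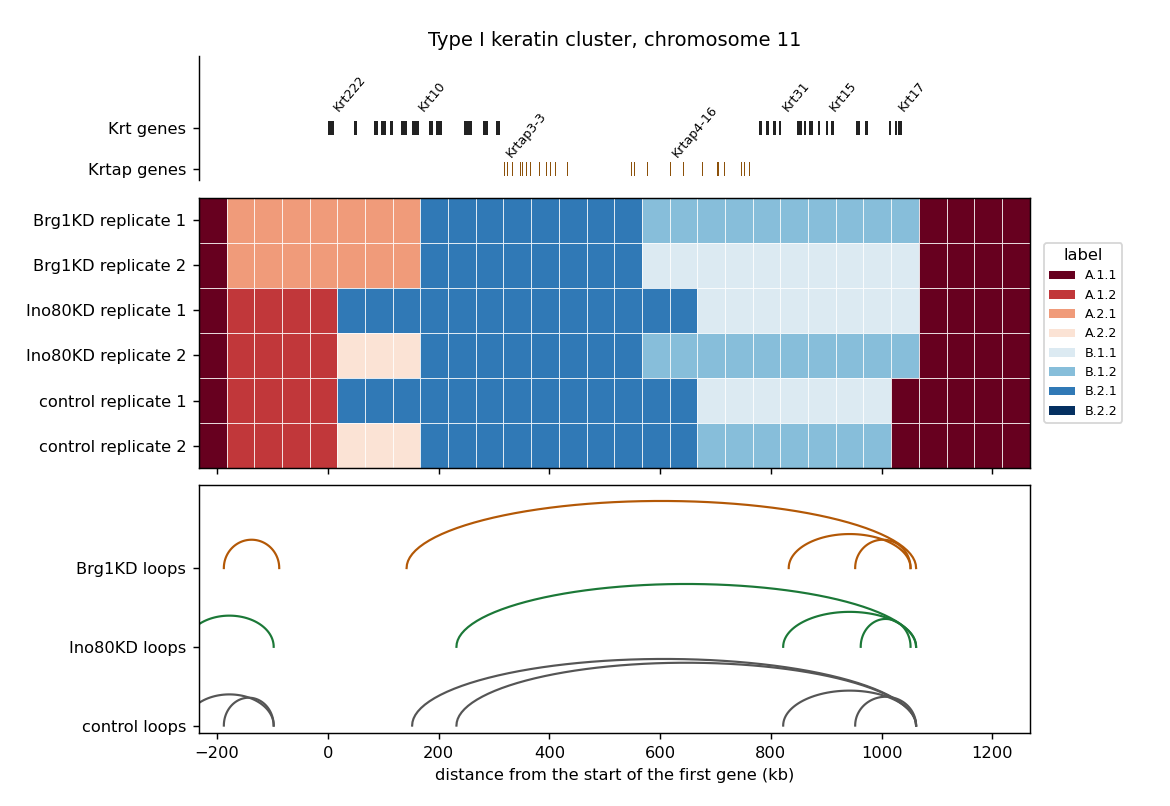
Type I keratin cluster: genes (top), subcompartment label of each 50 kb bin in each library (middle, dark red A.1.1 to dark blue B.2.2) and loops of the 3 pooled lists (bottom, arcs between anchor midpoints), by distance in kb from the start of Krt222. The A.1.1 block at the right begins 1 bin further right in the 4 knockdown libraries than in control, and the left A.2.1 block of Brg1KD reaches past Krt10.

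In the type II cluster a stretch of 6 neighbouring genes lay in A in Brg1KD and in B in Ino80KD and control. The 6 genes Krt90, Krt75, Krt6b, Krt6a, Krt5 and Krt71 (bins chr15:101550001-101750000) were A.2.1 and A.2.2 in Brg1KD, B.1.1 and B.1.1 in Ino80KD, and B.1.1 and B.1.1 in control. Krt5 marks basal epidermis, Krt6a and Krt6b are the wound keratins that pair with Krt16 and Krt17, and Krt75 and Krt71 belong to the hair follicle. The other 4 libraries had 1 label. The mean difference of Brg1KD to control was 1.5 classes, 2 in batch 1 and 1 in batch 2. It did not pass the test (limma, adjusted p = 0.413; 0.0466 with a common variance; 0.624 with batch as a block). Without Brg1KD replicate 1 the shift of Krt5 was 1 class with adjusted p = 2.54e-05 by limma, and without Brg1KD replicate 2 it was 2 classes with 2.48e-05; the remaining libraries then show no spread within any group. Ino80KD and control carried the same label here in every library.

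On either side of this stretch the groups overlapped with control. The 9 genes from Krt80 to Krt82, with the simple-epithelial Krt7 and the hair keratins Krt81, Krt82, Krt83, Krt84 and Krt86, were A.2.1 and A.2.2 in Brg1KD, A.2.2 and A.2.2 in Ino80KD, and A.2.2 and A.2.1 in control. The 9 genes from Krt72 to Krt78, with Krt1, Krt2 and Krt77 of suprabasal epidermis and the mucosal Krt4 and Krt76, were A.2.1 and A.2.1 in Brg1KD, A.2.2 and A.2.2 in Ino80KD, and A.2.2 and A.2.1 in control. At the right edge Krt8 (chr15:101996711-102004342) and Krt18 (chr15:102028216-102032026), the keratin pair of simple epithelia and of the early embryo, were in A.1.1 in all 6 libraries. The label of Krt8 rests on its midpoint. Part of the gene lies left of the border at 102000000, in the bin of Krt78, which was A.2.1 or A.2.2. In Brg1KD replicate 1 a single A.2.1 segment, chr15:101300001-102000000, covered the cluster up to Krt8. All 26 genes of the cluster lay in A in both Brg1KD libraries, against 20 in each of the other 4. The mean rank was 0.519 classes higher in Brg1KD than in control, but 1.15 within batch 1 and -0.115 within batch 2.

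**Figure D3:**
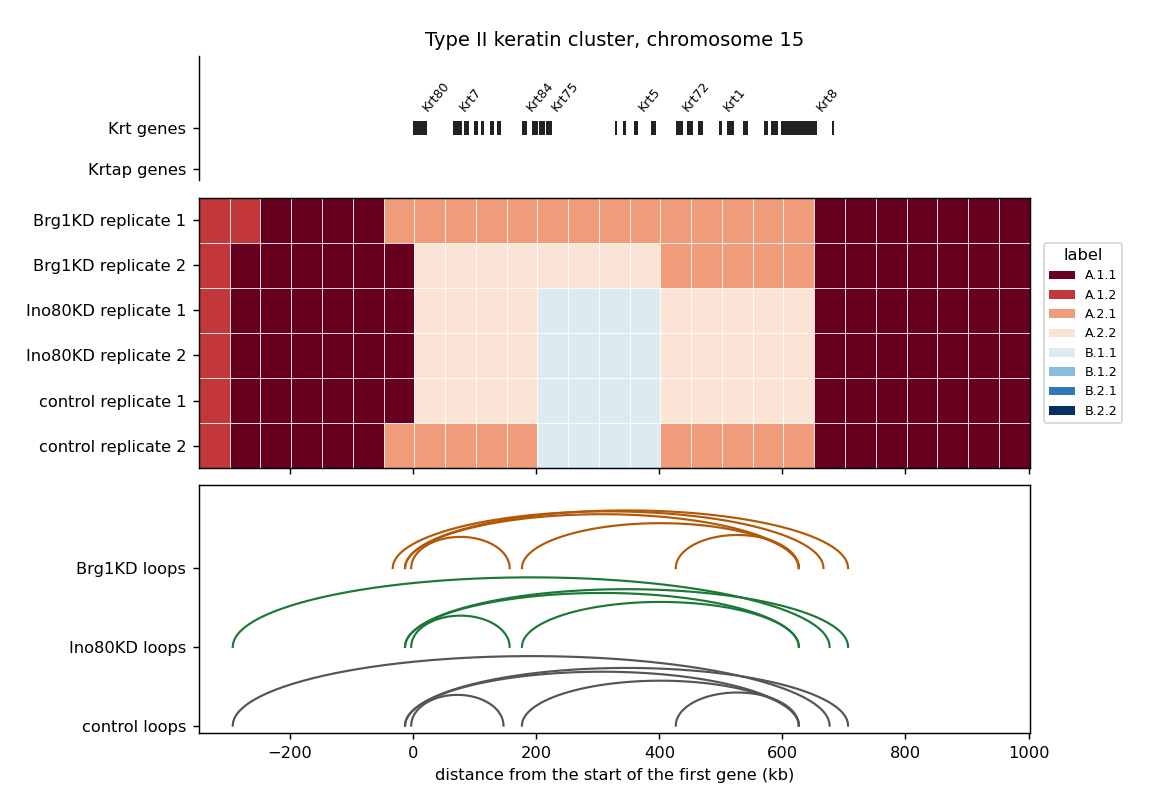
Type II keratin cluster, drawn as the type I cluster, by distance in kb from the start of Krt80; the row for Krtap genes is empty because the cluster holds none. The 4 bins from 200 to 400 kb, with Krt75 and Krt5, are B.1.1 in control and Ino80KD and in A in both Brg1KD libraries, and the bin of Krt8 and Krt18 is A.1.1 throughout.

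In the chromosome 16 cluster Ino80KD alone differed from control. Krtap14 (chr16:88825291-88826145) and Krtap15 (chr16:88829009-88829844), hair keratin-associated genes of 1 bin, were B.2.2 and B.2.2 in Brg1KD, B.2.1 and B.2.1 in Ino80KD, and B.2.2 and B.2.2 in control. They rose by 1 class in Ino80KD against control (limma, adjusted p = 1.20e-07), and were the 2 of 109 genes called in that comparison. With a common variance the adjusted p was 0.362, and with 100 kb bins it was 0.942. The neighbours on the left, Krtap27-1, Krtap13-1 and Krtap13, were B.2.2 and B.2.2 in Brg1KD, B.2.1 and B.2.1 in Ino80KD, and B.2.2 and B.2.1 in control, where 1 control library matched Ino80KD. The 10 genes from Krtap19-1 to Krtap6-5, most of them of the glycine- and tyrosine-rich proteins, were B.2.2 and B.2.1 in Brg1KD and B.2.2 in the other 4 libraries. Krtap6-3 was B.2.2 and B.2.1 in Brg1KD, B.2.1 and B.2.2 in Ino80KD, and B.2.2 and B.2.2 in control. Krtap24-1 and Krtap26-1 were B.2.1 in control replicate 2 and B.2.2 elsewhere. Krtap20-2, Krtap21-1, Krtap6-2 and Krtap8-1 were B.2.1 in control replicate 1 and B.2.2 elsewhere. No gene of this cluster left B in any library, and Cldn8, a claudin gene on its left, stayed in B.2.2 while Tiam1 on its right was in A.1.1 in all 6 libraries.

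**Figure D4:**
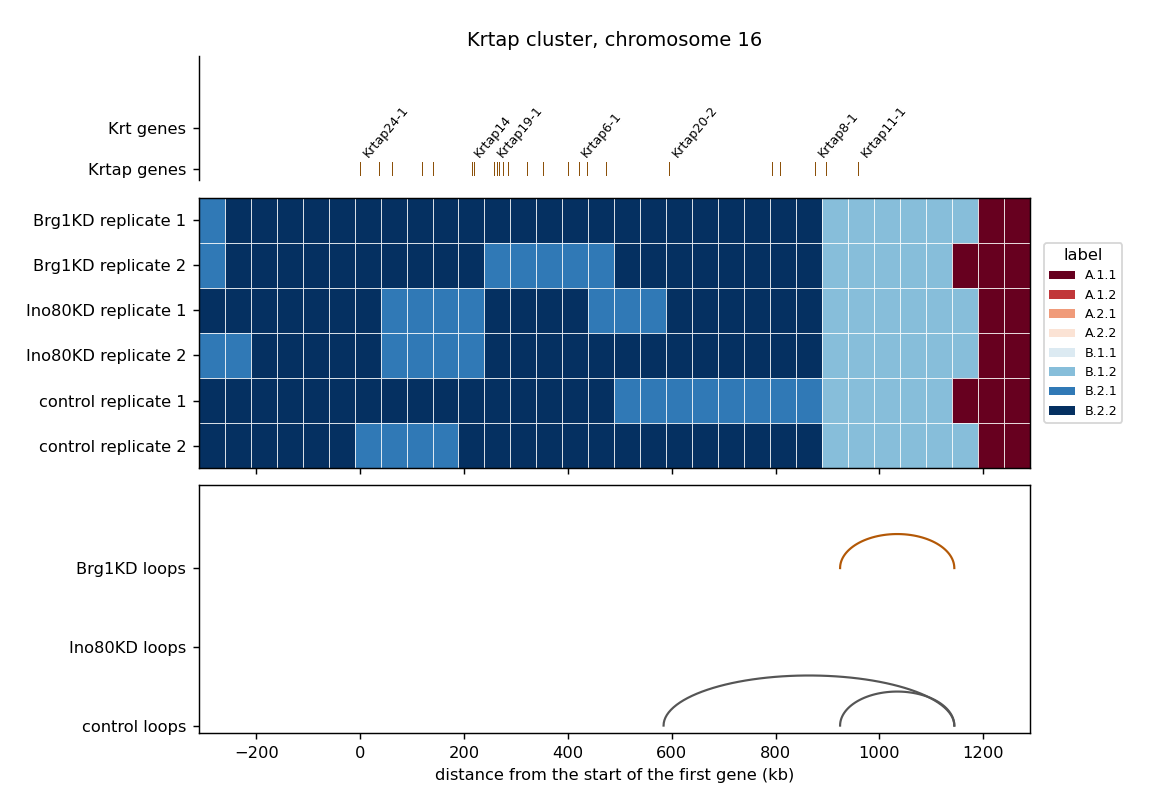
Krtap cluster of chromosome 16, drawn as the other clusters, by distance in kb from the start of Krtap24-1; the row for Krt genes is empty. B.2.1 patches lie at differing places within a B.2.2 block, some of them overlapping between libraries, and the bin of Krtap14 is B.2.1 in both Ino80KD libraries and B.2.2 in the other 4.

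In the small clusters the groups overlapped in every gene. Krtap5-2, Krtap5-3, Krtap5-5 and Krtap5-1 were A.2.2 and B.1.1 in Brg1KD, B.1.1 and A.2.2 in Ino80KD, and A.2.2 and B.1.1 in control. Krtap5-4 was A.2.2 in both libraries of Brg1KD and of Ino80KD, and A.2.2 and B.1.1 in control. The 3 genes on chromosome 10 were A.1.2 and A.2.1 in Brg1KD and in Ino80KD, and A.2.1 and A.2.1 in control, and were the Krtap genes with the highest ranks. Krtap28-13 was B.1.2 and B.1.1 in Brg1KD, B.2.1 and B.1.1 in Ino80KD, and A.2.2 and B.2.1 in control, so the controls bracketed all 4 knockdown libraries.

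Over all 109 genes, Brg1KD against control had 0 genes called by limma towards A and 1 (Krt222) towards B, where the same rule called 1.49% and 1.99% of all protein-coding genes. At an unadjusted p under 0.05 the counts were 6 (Krt90 to Krt71) and 3 (Krt222, Krt17 and Krt42). Of all 47717 bins, 2903 passed that threshold in either direction, and the share over all genes was not computed. With a common variance the counts were 15 and 2, against 1.24% and 1.49% of all genes. In 15 genes (13.8%) both Brg1KD libraries lay above both controls, against 3.29% of all genes, and in 3 (2.8%) below, against 4.34%. The 15 are the 6 genes from Krt24 to Krt10, the 3 of Krtap4-13 to Krtap9-1 and the 6 from Krt90 to Krt71, and they occupy 8 bins. They form 3 stretches of neighbours, so the count is not one of independent genes. The median shift of the 109 genes was 0, as over all genes, and the mean was 0.239 classes, against -0.0046 over all genes. Each fit with 1 library left out has 1 library alone in a group. The share of keratin genes called by limma then lay above that of all protein-coding genes without Brg1KD replicate 1 or control replicate 2. In every other such fit it lay below.

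Ino80KD against control had 2 genes (Krtap14 and Krtap15) called towards A and 0 towards B by limma, where the rule called 0.918% and 1.55% of all protein-coding genes. At an unadjusted p under 0.05 the counts were 2 (Krtap14 and Krtap15) and 2 (Krt17 and Krt42). Of all 47717 bins, 1797 passed that threshold in either direction, and the share over all genes was not computed. With a common variance the counts were 0 and 2 (Krt17 and Krt42), against 0.422% and 0.319% of all genes. In 2 genes (1.8%) both Ino80KD libraries lay above both controls, against 1.97% of all genes, and in 2 (1.8%) below, against 2.86%, so the shares were near or below those over all genes. The mean shift was -0.128 classes, against -0.0245 over all genes, and the median was 0 in both. Without control replicate 1 the share of keratin genes called lay above that of all protein-coding genes, and without control replicate 2 it was level. With any other library left out it lay below.

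**Figure D5:**
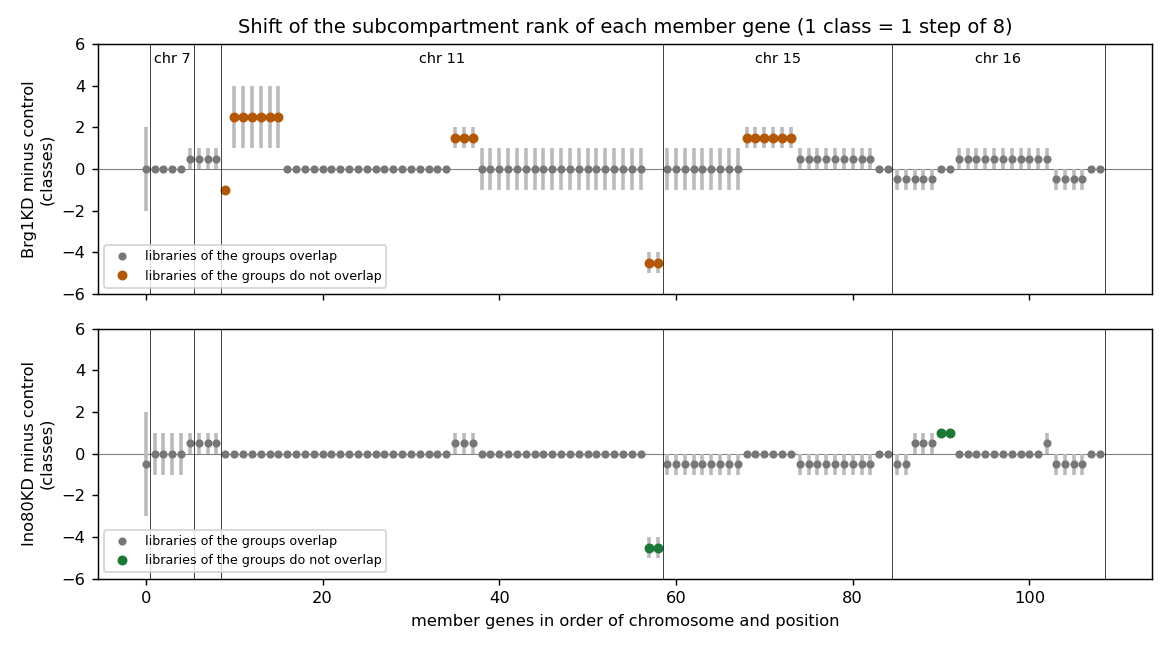
Shift of each gene in classes (vertical axis; Brg1KD minus control above, Ino80KD minus control below), genes in order of chromosome and position. Points are means, grey bars span the differences within the 2 batches, and coloured points mark genes whose groups do not overlap, of which Krt17 and Krt42, at -4.5 in both panels, lie farthest from 0.

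The knockdowns were also set directly against each other. In 21 of the 109 genes (19.3%), all of them Krt, both Brg1KD libraries lay above both Ino80KD libraries, against 3.95% of all protein-coding genes. The 21 genes form stretches of neighbours on 11 bins, so the count is not one of independent genes. They were the 6 genes from Krt24 to Krt10, the 6 from Krt90 to Krt71 and the 9 from Krt72 to Krt78. None passed limma's test, with adjusted p = 0.866 for Krt10, 0.503 for Krt5 and 0.866 for Krt1. Below both Ino80KD libraries lay 6 genes (5.5%), against 3.23% of all genes: Krt222, Krtap27-1, Krtap13-1, Krtap13, Krtap14 and Krtap15. Of these limma called Krt222, Krtap14 and Krtap15, each at -1 class with adjusted p = 9.78e-08, so 0 genes were called towards A and 3 towards B. The rule called 1.42% and 1.31% of all protein-coding genes. At an unadjusted p under 0.05 there were 6 (Krt90 to Krt71) and 3 (Krt222, Krtap14 and Krtap15). Of all 47717 bins, 2386 passed that threshold in either direction, and the share over all genes was not computed. With a common variance there were 6 (Krt24 to Krt10) and 0, against 0.545% and 0.569% of all genes. Without Brg1KD replicate 1 or either control replicate the share of keratin genes called lay above that of all protein-coding genes. Without Brg1KD replicate 2 it was level, and without either Ino80KD replicate it lay below.

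Loops, the pairs of 10 kb anchors that a caller marks as enriched contacts, were given as 1 list per group and have no replicate check. An anchor at an end of a keratin gene was found in 5 loops of 6013 in Brg1KD, 5 of 5475 in Ino80KD and 7 of 5903 in control. These touched 5 genes (4.6%) in Brg1KD, 5 (4.6%) in Ino80KD and 8 (7.3%) in control, against 11.7%, 11.3% and 11.7% of all protein-coding genes. The genes were Krt9, Krt28, Krt72, Krt80 and Krt84 in Brg1KD, Krt9, Krt18, Krt31, Krt80 and Krt84 in Ino80KD, and Krt9, Krt10, Krt18, Krt31, Krt72, Krt80, Krt83 and Krt84 in control. None of the 56 Krtap genes had an anchor at an end in any list.

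In the type I cluster the loops converged on the bin of Krt17 and Krt42. In control 4 loops shared the anchor chr11:100290001-100300000, between Krt42 and Eif1. They reached Krt9 (110 kb), Krt31 (240 kb), an anchor at chr11:99460001-99470000 near Krt23 (830 kb) and Krt10 (910 kb). Ino80KD listed the loops to Krt9 (90 kb, with shifted anchors), to Krt31 and to 99460001, and none to Krt10. Brg1KD listed loops to Krt9 (100 kb) and, shifted by 10 kb, beside Krt31 (220 kb), and 1 of 920 kb to Krt28 whose left anchor lies 10 kb from that of the control loop at Krt10. It listed none at 99460001. The bin that holds the shared anchor is the bin that was A.1.1 in control and in B in all 4 knockdown libraries, and the loops to Krt9 and beside Krt31 were listed in all 3 groups within 10 kb.

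In the type II cluster the anchor chr15:101970001-101980000, inside the gene Krt78, a keratin of stratified epithelia, was shared by several loops. It was joined to 101330001, left of Krt80 (640 kb), and to Krt84, a keratin of hair and tongue (450 kb), in all 3 lists. Its loop to Krt72 (200 kb), of the inner root sheath, was listed in Brg1KD and control, not in Ino80KD. Krt80 was joined to 101500001 in Brg1KD and Ino80KD (160 kb) and to the neighbouring anchor at Krt83 in control (150 kb). Krt18 was joined over 970 kb to Fignl2, outside the cluster, in Ino80KD and control. Brg1KD did not list this loop and had 1 of 700 kb from 101310001 to 102010001, between Krt8 and Krt18, that neither other list held within 10 kb. A loop of 720 kb around the whole cluster, from 101330001 to 102050001, was in all 3 lists.

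Few loops touched the Krtap clusters. On chromosome 16 a loop of 220 kb from 89530001 to 89750001, from the bin of Krtap7-1 in B.1.2 towards Tiam1, was in the Brg1KD and control lists, and 1 of 560 kb from 89190001 to the same anchor in the control list alone. Ino80KD listed no loop with an anchor in this cluster. On chromosome 7 a loop of 110 kb was listed in Ino80KD and control. Of the 7 control loops at keratin gene ends, 2 were identical in Brg1KD and 3 in Ino80KD, and 6 and 5 had a partner within 10 kb. Over the whole control list 45.7% of the loops were identical in Brg1KD and 46.4% in Ino80KD, so the absence of an identical loop was common.

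Other genes of keratinization, none of them Krt or Krtap and 1 of them (Jup) beside the type I cluster, served as a list of the pathway: 46 genes of the cornified envelope, the desmosome and the transcription factors of epidermis and hair, all matched. In Brg1KD against control limma called 0 towards A and 2 towards B, and in Ino80KD against control 0 and 1. Of all protein-coding genes the rule called 1.49% and 1.99% for Brg1KD, and 0.918% and 1.55% for Ino80KD. The list's counts were the same at an unadjusted p under 0.05. Of all 47717 bins, 2903 passed that threshold for Brg1KD and 1797 for Ino80KD, in either direction. With a common variance the list's counts were 0 and 0 for Brg1KD, and 1 and 0 for Ino80KD. The 1 is Lce1m, a late cornified envelope gene, which was B.2.2 and B.1.1 in Brg1KD, B.1.1 and B.1.1 in Ino80KD, and B.1.2 and B.2.2 in control (2 classes for Ino80KD against control, limma adjusted p = 0.97; 0.00371 with a common variance). Lor, loricrin, the main protein of the cornified envelope, was B.2.1 in all 4 knockdown libraries and B.1.2 in both controls (-1 class, adjusted p = 8.00e-08 for Brg1KD and 1.20e-07 for Ino80KD). Trp63, the master regulator of stratified epithelia, was B.2.2 in both Brg1KD libraries, and B.2.1 in both of Ino80KD and of control (-1 class, adjusted p = 8.00e-08). The envelope genes Ivl, Sprr1a and Lce1a1 were in B.2.2, and Dsp, Plec and Grhl3 in A.1.1, in all 6 libraries. The mean shift of the list was 0.022 classes in Brg1KD and 0.065 in Ino80KD.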

How the data were processed

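The submitters' processing notes name mm10 and, with no roles, Juicer 2.0, BWA, bedtools, SAMtools and HOMER. The authors deposited, per library, segments with a subcompartment label and a score, its rank in 8 steps, and per group 1 list of loops with anchor positions and no score. The lists were taken as pooled from both libraries of a group. The caller of either, its thresholds and any depth normalization are not given in the sources used here, and the files give no read numbers.

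The genome was tiled into 50 kb bins, of which 47717 had a label in all 6 libraries. Their ranks were tested by limma 3.58.1 (R 4.3.3; 1 fit of all 6 libraries on group, eBayes, Benjamini-Hochberg threshold 0.05 over all bins). The p-values are poorly calibrated: 18941 bins have no residual spread, and 2294 of 2304 bins called for Brg1KD and 1533 of 1538 for Ino80KD are among them. In fits without 1 library 50.2% to 51.5% of bins have none, so their p-values are less reliable still. Differences and SDs below 1e-08 are rounding residue and were set to 0. Genes whose groups do not overlap were therefore counted too. For 1 value, 2 against 2 libraries cannot go below p = 0.333 in an exact two-sided permutation test, and none was run. The fit was tested on simulated data with continuous noise in every bin. Those data hold no bins without residual spread, so that test does not bear on calls made in such bins. No pair of libraries held identical labels.

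Genes were placed with the RefSeq table of GRCm38.p6. The members and lists were chosen with earlier results of these data known. Named genes were those of set epithelial roles, cluster ends, called genes and genes with a loop anchor at an end; Krt26, Krt90, Krt6b, Krtap13-1, Krtap27-1 and other members named as part of a stretch, and the stretches themselves, were chosen with their values in view. Alternatives were a common variance, 100 kb bins, the mean over a gene's bins, each bin once, each library left out, other anchor rules, and batch as a block. The common variance was the mean residual variance over all bins, with p from a normal distribution. Such p-values ignore the spread of the bin itself and can be too small where its libraries differ. The labels give the batch; deviations of same-batch libraries correlated with r = 0.0984 (Brg1KD and control), 0.102 (Ino80KD and control) and 0.0885 (Brg1KD and Ino80KD).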

Additional observations from a re-analysis of the deposited data

How the results depend on the processing

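With batch as a replicate block, the same counts of called keratin genes were found, and no call of a keratin gene changed. They were 1 in Brg1KD against control, 2 in Ino80KD against control and 3 in Brg1KD against Ino80KD. These are 0.9%, 1.8% and 2.8% of the keratin genes, against 3.8%, 2.6% and 3.0% of all protein-coding genes. Within batches 1 and 2 the mean shift of Brg1KD against control was -0.06 and 0.44 classes for the type I cluster, 1.15 and -0.115 for the type II cluster and -2 and 2 for Krtap28-13. That of Ino80KD against control was -0.8 and 1 for chromosome 7, 0.0833 and 0 for chromosome 16 and -3 and 2 for Krtap28-13. With each bin counted once the Ino80KD shift of the type I cluster was -0.167.

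With 100 kb bins 0 keratin genes were called in any of the 3 comparisons, among 1052, 690 and 885 bins called, and Krt222 in Brg1KD reversed to 0.75. That 100 kb bin averages the 50 kb bin of Krt222, at -1, with that of Krt24, at 2.5. With a common variance 17, 2 and 6 keratin genes were called (15.6%, 1.8% and 5.5%), against 2.7%, 0.7% and 1.1% of all protein-coding genes. Neighbours share labels, so these are not counts of independent genes. The bins called were 1622 for Brg1KD, 326 for Ino80KD and 515 for Brg1KD against Ino80KD. Both Ino80KD libraries lay above both controls in 7 genes and below in 4 with 100 kb bins, and in 1 and 1 with each bin counted once, where the count for Brg1KD towards A was 8. The share over all genes was not computed at these settings, so whether these counts exceed it is unknown. Anchors widened by 10 kb gave 10 loops at keratin genes in Brg1KD, 9 in Ino80KD and 12 in control, 4 of the control loops being identical in Brg1KD and 7 in Ino80KD. At most 10 kb apart, 6 and 5 control loops were found in Brg1KD and Ino80KD. Apart from the joined bins of Krt222, the cause of these changes was not tested.

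Leaving out 1 library assumes that the lone library varies like the other groups. It gave 1 to 17 called keratin genes for Brg1KD (3855 to 5499 bins), 2 to 14 for Ino80KD (2468 to 4707 bins) and 3 to 19 for Brg1KD against Ino80KD (3292 to 4977 bins). Brg1KD shifts ran from -0.05 to 0.43 for the type I cluster, 0.173 to 0.865 for type II, -0.188 to 0.271 for chromosome 16, -0.4 to 0.6 for chromosome 7, 0 to 1 for chromosome 10 and -1.5 to 1.5 for Krtap28-13. Ino80KD shifts ran from -0.16 to -0.14, -0.692 to 0, 0.0208 to 0.0625, -0.4 to 0.6, 0 to 1 and -2 to 1 in the same order. Depth is unknown, 2 libraries a group set the precision, and the loop lists have no replicates.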
